A study of Homo sapiens with 13 samples.

Results

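The second day of the control time course of H1975 cells, from 24 h to 48 h without added growth factor, was described by comparing the 3 arrays labelled 48h_control with the 2 labelled 24h_control. H1975 is an established human lung adenocarcinoma line that carries an activated epidermal growth factor receptor. Its cells were kept in medium without fetal calf serum overnight before 0 h, so serum was already absent at the start, and every array used here came from untreated cells of this 1 line that went on in starvation medium without EGF. The rule took every feature (probeset) of the GeneChip Human Gene 2.0 ST array that carries a symbol and reaches 0 or more on any of the 13 control arrays, which gave 12976 of the 39937 features in the table, for 12374 symbols. To tell genes that went on changing from genes that reversed, the first day (24 h against the 3 arrays of 0 h) was measured as well. The values are SCAN scores, which the authors made by standardising every array by itself. A score near 0 is background, and a difference of scores is no log2 fold change. A feature was called changed at an adjusted p under 0.05 in limma.

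Cells without serum leave the cycle in an ordered way. Genes for copying DNA, switched on by E2F factors before S phase, and genes for the mitotic spindle and chromosome segregation, switched on later by the FOXM1 and B-MYB programme, are shut off when mitogens are missing. Sterol synthesis genes answer to the supply of lipid, and ATF4 targets to the supply of amino acids.

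The 2 arrays of 24 h correlated at 0.995 over the tested features and the 3 arrays of 48 h at 0.996 to 0.997. The median replicate SD was 0.0285 at 24 h and 0.0330 at 48 h. The first array of 0 h stood apart, with correlations of 0.981 and 0.982 to the others of its time against 0.996 between those, so first-day results are given with and without it. The labels do not say that replicates came from separate cultures, so the p-values measure the spread between these arrays, which may be technical. The median score of the tested features was 0.690 and 0.676 at 24 h and 0.627, 0.653 and 0.631 at 48 h, so the 24 h arrays lay higher as a whole. Of the markers of H1975 cells 7 of 8 were tested, and their summed score was 11.8 to 12.0 at 24 h and 12.5 to 12.7 at 48 h. Most of that rise came from NAPSA (difference 0.536). Of the 7, 2 were called higher on the second day, against 2.78% of all features. Markers of other cells stayed near background: 7 of 9 tested leukocyte genes (not CD68 and CSF1R) were below 0.2 on all 5 arrays, as were 4 of 5 tested endothelial genes (not KDR) and 3 of 3 tested fibroblast genes.

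From 24 h to 48 h 1358 of 12976 features changed (10.5%), 361 (2.78%) to higher and 997 (7.68%) to lower values. The split depends on how arrays are put on a common scale. After quantile normalisation (8.25% called) 517 (3.98%) rose and 553 (4.26%) fell, and after subtraction of each array's median 928 (7.15%) rose and 493 (3.80%) fell. The median difference over all features was -0.0207 as deposited, 0.00273 after quantile normalisation and 0.0256 after median subtraction. Large changes lay mostly on the lower side under each scale: 146 features fell and 20 rose by more than 0.3 as deposited, 111 fell and 31 rose after quantile normalisation, and 100 fell and 45 rose after median subtraction. Fitted over all 13 arrays, with the spread of the first 0 h array included, 81 features rose and 287 fell. Fitted over 11 arrays, without the first 0 h array and the 2 h array, 352 rose and 988 fell. In all 1358 called features the arrays of the 2 times did not overlap, as they also did not in 1546 (11.9%, higher) and 3801 (29.3%, lower) of all tested features.

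**Figure D1:**
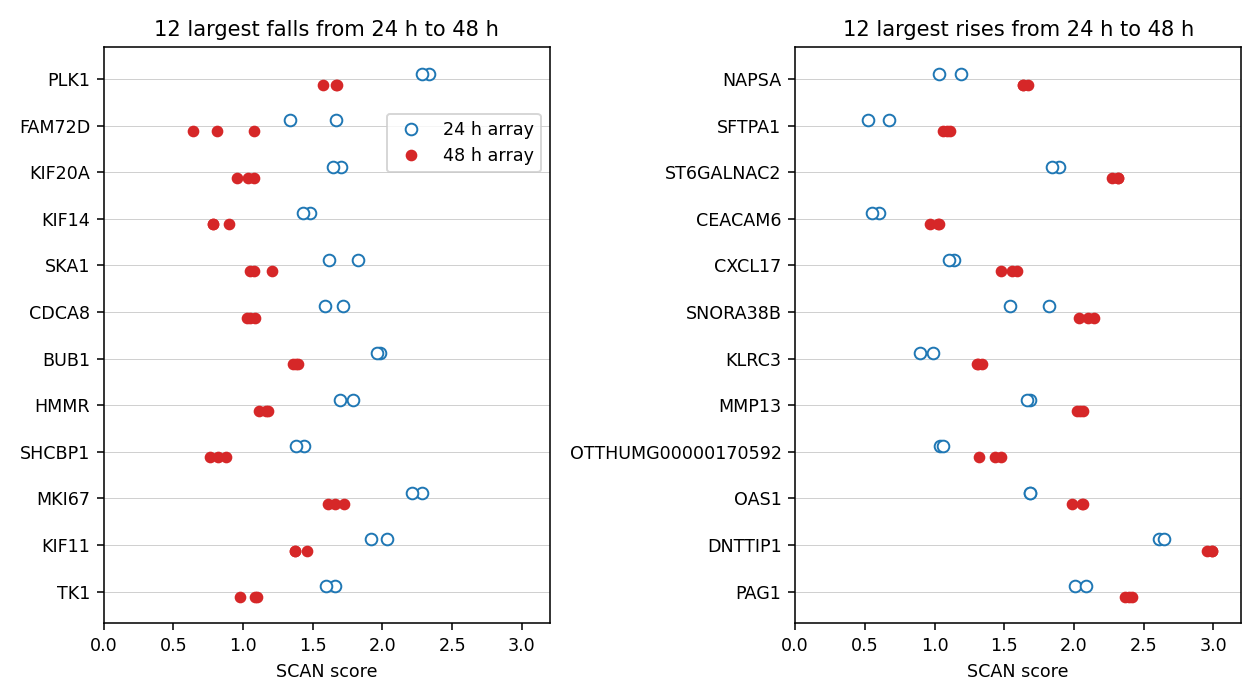
SCAN score (x axis) of the 12 called genes that fell most and the 12 that rose most from 24 h to 48 h. The arrays of the 2 times do not overlap in any called gene. Each array is 1 point, open for the 2 arrays of 24 h and filled for the 3 arrays of 48 h. PLK1 lies between 2.28 and 2.34 at 24 h and between 1.57 and 1.67 at 48 h, and NAPSA moves the other way, from 1.04 and 1.19 to 1.64, 1.64 and 1.67.

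The largest falls were in genes of cell division. PLK1, a kinase that drives entry into and exit from mitosis, scored 2.34 and 2.28 at 24 h and 1.57, 1.67 and 1.67 at 48 h. The groups are far apart, and the difference of -0.673 had a standard error of 0.0384 and an adjusted p of 1.95e-06. KIF20A, the kinesin of the central spindle, went from 1.70 and 1.64 to 0.959, 1.08 and 1.03, a fall by 0.649 (adjusted p = 1.95e-06). KIF14, another kinesin needed for cytokinesis, went from 1.48 and 1.43 to 0.784, 0.901 and 0.784 (difference -0.630, adjusted p = 2.32e-06). CDCA8, a subunit of the chromosomal passenger complex, went from 1.72 and 1.59 to 1.03, 1.05 and 1.09 (difference -0.599). BUB1, a kinase of the spindle checkpoint, went from 1.98 and 1.96 to 1.36, 1.38 and 1.40 (difference -0.592). No 48 h array reached a 24 h array for any of these genes. Every called feature was like this, and on the lower side 29.3% of all tested features were. HMMR, SKA1, SHCBP1, MKI67 and KIF11 had differences of -0.576 to -0.611. MKI67 encodes the Ki-67 protein of dividing cells and KIF11 the motor that pushes spindle poles apart. FAM72D also stood among the 12 largest falls, with 1.34 and 1.67 at 24 h and 1.08, 0.811 and 0.637 at 48 h, but its arrays scatter more (standard error 0.106). It belongs to a family of near-identical copies whose probes may not be told apart.

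Of 53 tested genes of the mitosis list 52 fell and none rose, against 7.68% of all features that fell. RACGAP1, a regulator of cytokinesis, was the exception (difference -0.129, adjusted p = 0.0716; named after its value was seen). The median difference was -0.419, with a range of -0.673 to -0.129, against -0.0207 over all features. After quantile normalisation 51 and after median subtraction 49 of the 53 were called lower. The list's median score was 1.55 and 1.44 at 24 h and 0.960, 1.05 and 1.02 at 48 h. Between 0 h and 24 h the same genes had moved less. Their median first-day difference was -0.212, with 26 of 53 called lower, or -0.197 with 40 called lower once the first 0 h array was left out. By class, with the second day from its 5 arrays and the first from 13, 26 members were lower on both days and 26 on the second day alone. Fitted over 13 arrays the second day itself gave 45 calls.

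The DNA replication list fell on both days by like amounts. Of its 28 tested members 26 were lower at 48 h than at 24 h and none was higher, with a median of -0.266. After median subtraction 25 were lower, and over all 13 arrays 18. On the first day 23 had been called lower (background 2.37%), or 26 without the first 0 h array (background 4.72%), with a median of -0.326 either way. TK1, the thymidine kinase of the salvage pathway, scored 1.66 and 1.59 at 24 h and 0.981, 1.10 and 1.09 at 48 h (difference -0.570, adjusted p = 3.26e-06). GINS2, a subunit of the replicative helicase, scored 1.96 and 1.80, then 1.44, 1.44 and 1.41 (difference -0.446). TYMS, which makes thymidylate, scored 1.48 and 1.40, then 1.05, 1.12 and 1.03 (difference -0.373). Every 48 h array was below both 24 h arrays in these genes, as in every feature called lower. The 2 members that did not pass the test were DUT and GINS3, with differences of -0.0401 and -0.101 (named after their values were seen).

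Whether a gene fell faster on the second day than on the first was tested as the difference of both changes, a comparison added after the data were seen. Over all 13 arrays only 1 feature of 12976 passed (0.00771%). Without the first 0 h array 487 features (3.75%) had a lower second-day than first-day change, and 45 (0.347%) a higher one. On this second count 19 of the 53 mitosis genes fell more on the second day, while none of the 28 replication genes passed in either direction. The median difference between the changes was -0.227 for mitosis, 0.0492 for replication and -0.0468 over all features. PLK1 fell by 0.240 on the first day without that array and by 0.673 on the second, a difference of -0.432 (adjusted p = 0.0107). For GINS2 the changes were -0.458 and -0.446, a difference of 0.0121 (adjusted p = 0.951). DTL, the substrate receptor of a ubiquitin ligase active in S phase, went the other way, with -0.603 on the first and -0.271 on the second day (adjusted p = 0.0208). PLK1 was named for its large second-day fall and DTL for its large first-day fall, so each difference leans the way its gene was picked. Both changes share the 24 h arrays, with opposite sign.

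**Figure D2:**
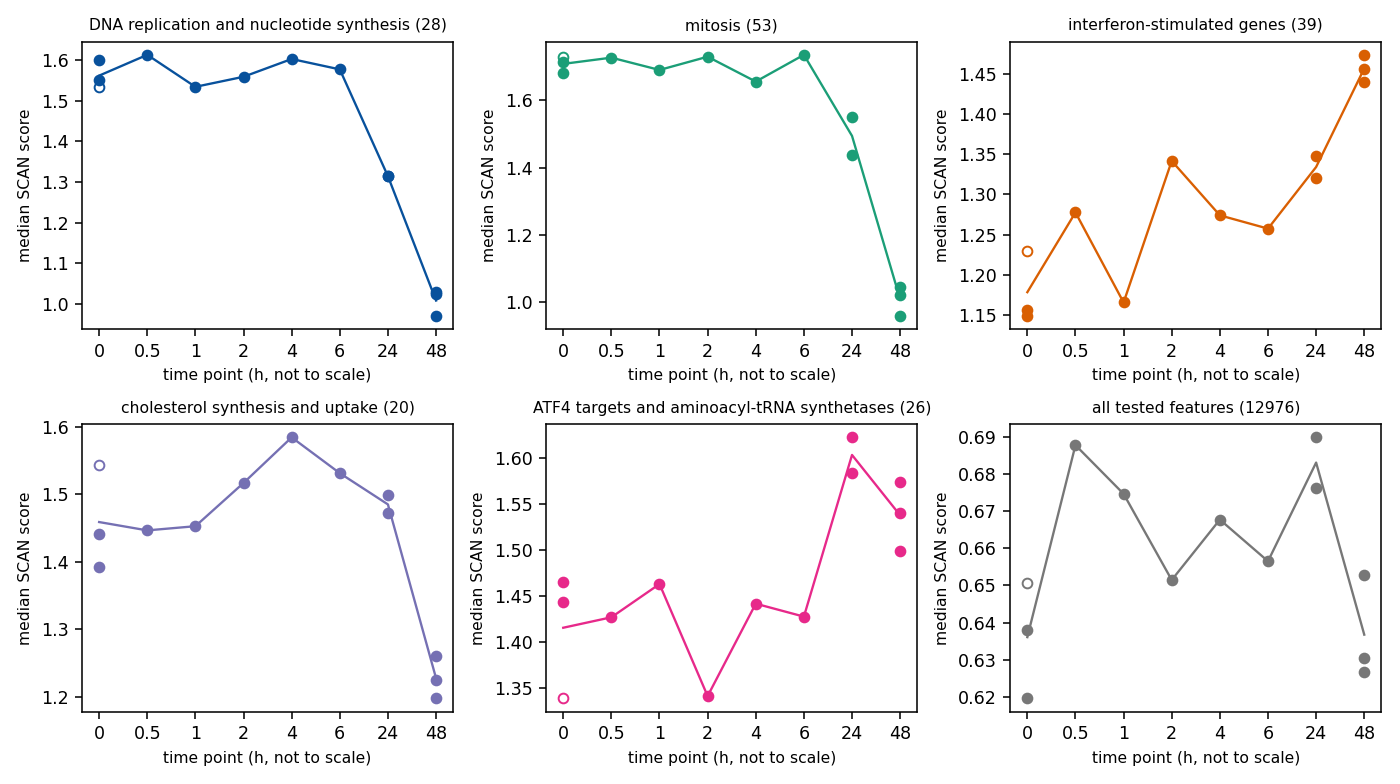
Median SCAN score of 5 gene lists and of all tested features (y axis, separate scales that do not start at 0) at each time point (x axis, hours, not to scale), with 1 point an array, a line through the means and the first 0 h array as an open point. The replication list is down to about 1.31 at 24 h and to 0.970 to 1.03 at 48 h, while most of the fall of the mitosis list, from 1.55 and 1.44 to 0.960 to 1.05, comes after 24 h.

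The promoters of both lists are shown because members of each moved together and because the lists differ in their motifs. RefSeq windows from 250 bases before to 50 after each start (GRCh38.p14) were at hand for 43 of the 53 mitosis and 25 of the 28 replication genes, some with several starts. The cell cycle homology region, CHR (TTTGAA), a motif of genes that peak in mitosis, was in 34 of 49 mitosis windows (69.4%) and in 2 of 35 replication windows (5.71%), against 15.2% of all 35116 windows. An E2F-like motif (TTCCCGC or TTGGCGC) was in 18.4% of the mitosis and 57.1% of the replication windows, against 9.23% of all. The CCAAT box (CCAAT), the site of NF-Y, was frequent in both, at 73.5% and 65.7%, against 34.6%. Over the windows of tested genes alone the shares were 11.4% for CHR, 12.5% for the E2F-like motif and 34.5% for CCAAT. All motifs were searched on both strands. They may overlap, since CCAAT read on the other strand shares letters with TTGGCGC and can run on from TTTGAA. Windows from 150 bases before to 50 after the start follow, 5′ to 3′ on the gene's strand, with CHR and CCAAT matches in capitals for the 3 mitotic genes and E2F-like and CCAAT matches in capitals for the 2 replication genes.
PLK1 promoter, chr16:23678739-23678938, plus strand: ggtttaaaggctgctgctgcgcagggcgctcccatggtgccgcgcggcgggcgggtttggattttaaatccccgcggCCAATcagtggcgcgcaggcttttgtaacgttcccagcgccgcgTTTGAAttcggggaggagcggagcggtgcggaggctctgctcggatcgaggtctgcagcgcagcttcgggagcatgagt
CDCA8 promoter, chr1:37692366-37692565, plus strand: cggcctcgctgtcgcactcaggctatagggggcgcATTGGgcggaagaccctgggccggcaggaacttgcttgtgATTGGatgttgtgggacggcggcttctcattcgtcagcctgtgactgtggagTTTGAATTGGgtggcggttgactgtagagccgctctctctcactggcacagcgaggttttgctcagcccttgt
KIF14 promoter, chr1:200620702-200620901, minus strand: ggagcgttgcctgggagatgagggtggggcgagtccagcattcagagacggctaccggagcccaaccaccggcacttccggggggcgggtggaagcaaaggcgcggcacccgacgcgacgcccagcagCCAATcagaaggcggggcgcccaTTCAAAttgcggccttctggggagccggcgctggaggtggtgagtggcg
TK1 promoter, chr17:78187003-78187202, minus strand: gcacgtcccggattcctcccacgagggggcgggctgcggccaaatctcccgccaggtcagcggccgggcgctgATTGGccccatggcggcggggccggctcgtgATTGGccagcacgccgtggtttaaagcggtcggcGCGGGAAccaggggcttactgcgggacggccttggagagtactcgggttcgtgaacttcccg
GINS2 promoter, chr16:85688905-85689104, minus strand: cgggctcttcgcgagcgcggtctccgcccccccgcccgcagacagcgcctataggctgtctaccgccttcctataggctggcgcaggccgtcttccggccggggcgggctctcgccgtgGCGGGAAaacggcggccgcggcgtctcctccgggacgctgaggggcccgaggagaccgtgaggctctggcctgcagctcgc
These genes were picked by hand, and each window was taken because it holds a CHR or an E2F-like match. A match is a string of letters and not a measured site. In the KIF14 window CHR stands on the other strand, just after the start, and in the CDCA8 window it runs into a CCAAT box. The TK1 window belongs to 1 of its 2 listed starts, and the GINS2 window shown holds no CCAAT match.

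**Figure D3:**
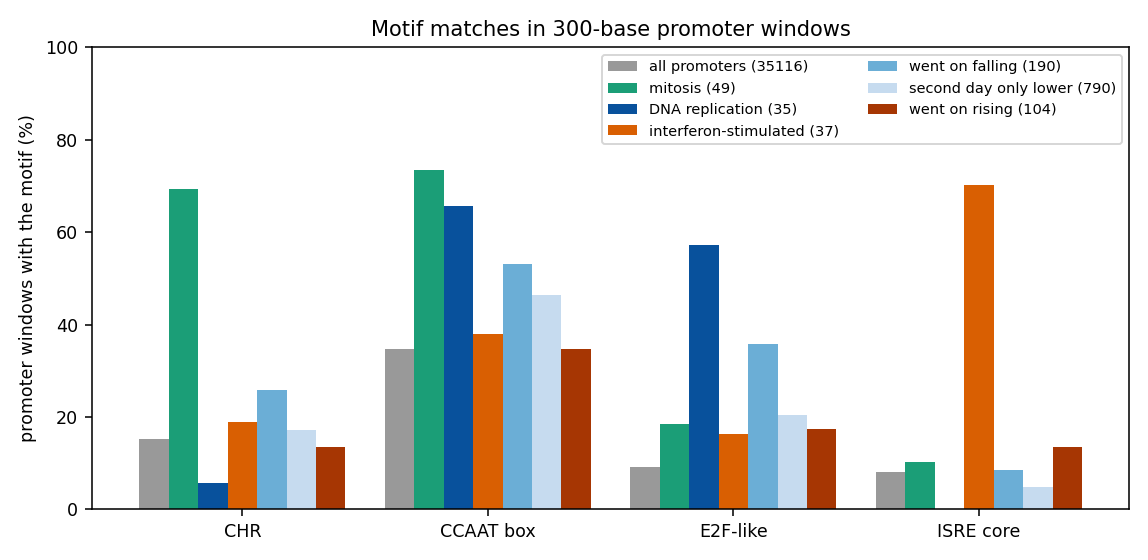
Share of promoter windows (y axis, %) that hold each of 4 motifs on either strand, for all RefSeq windows, for 3 gene lists and for 3 groups of called genes, with the number of windows in brackets. CHR was in 69.4% of mitosis windows, the E2F-like motif in 57.1% of replication windows and the ISRE core in 70.3% of interferon-stimulated windows. The groups of called genes had smaller shares of these motifs. CHR was in 25.8% of windows of genes that went on falling and in 17.2% of those lower on the second day only. The E2F-like motif was in 35.8% and 20.4% of them, and the ISRE core in 13.5% of windows of genes that went on rising.

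Other parts of the cycle followed. The counts of this paragraph are to be read against 2.78% of all features that rose and 7.68% that fell. Of 33 tested cyclins, CDKs and inhibitors 16 fell and none rose (median -0.124). CCNA2, the cyclin of S and G2 phase, scored 2.27 and 2.21, then 1.66, 1.68 and 1.70 (difference -0.557, adjusted p = 1.95e-06). CDK1, the kinase of mitotic entry, scored 1.47 and 1.45, then 0.966, 1.00 and 1.03 (difference -0.457), and MYBL2, which encodes B-MYB, fell by 0.526. The arrays of the 2 times do not overlap for these genes, which held for every called feature. CDKN3, a phosphatase that acts on CDKs, was level on the first day (-0.00271 over 13 arrays) and fell by 0.399 on the second. Of 12 tested replication-dependent histone genes 10 fell (median -0.298), among them H3C8 (difference -0.482) and H1-5 (difference -0.417). On the first day none of the 12 was called lower over 13 arrays and 10 were without the first 0 h array, which was low in histones. Histone copies are alike enough to share probes. Of 34 DNA repair genes 22 fell and 1 rose (median -0.190). POLQ, the polymerase of theta-mediated end joining, scored 0.961 and 0.905, then 0.466, 0.390 and 0.435 (difference -0.503, adjusted p = 3.26e-06), and FANCD2, a hub of crosslink repair, fell by 0.370. The 1 riser was MRE11, a nuclease of break repair. Fitted over all 13 arrays 2 of the 12 histone genes, 12 of the 34 repair genes and 12 of the 33 cyclin and CDK genes were called lower. In that fit 2.21% of all features were called lower, and MRE11 was not called.

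Interferon-stimulated genes made up the clearest rising group. Of 39 tested members 23 rose and none fell, against 2.78% of all features that rose, and the median difference was 0.139. After quantile normalisation 24 and after median subtraction 26 were called higher. Fitted over all 13 arrays 8 were, and leaving out any 1 of the 5 arrays left 16 to 21. OAS1, which makes the 2-5A signal that activates RNase L, scored 1.69 and 1.69 at 24 h and 2.06, 1.99 and 2.07 at 48 h (difference 0.352, standard error 0.0347, adjusted p = 3.55e-05). IFI44L scored 2.00 and 2.05, then 2.37, 2.34 and 2.32 (difference 0.314). IFITM1, a membrane protein that hinders virus entry, scored 2.01 and 1.91, then 2.30, 2.25 and 2.27 (difference 0.309). All 3 had also risen on the first day, by 0.311, 0.352 and 0.255 over 13 arrays. DDX60, a helicase, had not: it scored 1.88 and 1.89 at 24 h, 2.16 on each 48 h array (difference 0.271), and its first-day difference was -0.129 (adjusted p = 0.182). By class 9 members went on rising, 13 rose on the second day alone and 1, IFIT3, fell and then rose. Among the 16 members not called were IRF1 (difference -0.0127), GBP1 (0.0113) and USP18 (-0.0518), named after their values were seen. Of the MHC class I list 1 of 6 tested members rose, B2M, the light chain (difference 0.169).

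The core of the interferon-stimulated response element, ISRE (GAAANNGAA), was in 26 of 37 windows of these genes (70.3%) against 8.11% of all windows. Over the windows of tested genes alone the share was 6.43%. IFITM1 and DDX60, with 2 matches each, were picked by hand as windows that hold the motif and are shown with the matches in capitals.
IFITM1 promoter, chr11:313890-314089, plus strand: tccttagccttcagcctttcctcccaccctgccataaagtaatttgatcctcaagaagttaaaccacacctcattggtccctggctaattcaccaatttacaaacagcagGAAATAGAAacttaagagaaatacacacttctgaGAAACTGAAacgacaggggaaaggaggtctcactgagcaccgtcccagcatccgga
DDX60 promoter, chr4:168318703-168318902, minus strand: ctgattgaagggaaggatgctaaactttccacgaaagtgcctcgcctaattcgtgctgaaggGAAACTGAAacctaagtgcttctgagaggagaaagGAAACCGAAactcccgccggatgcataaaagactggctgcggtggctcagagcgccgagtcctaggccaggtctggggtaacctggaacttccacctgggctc
A link between the motif and the course of either gene was not tested. The OAS1 window held no match in these letters.

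Genes of the differentiated lung epithelium gave the largest rises of all called features. NAPSA, the aspartic protease that processes surfactant protein B, scored 1.04 and 1.19 at 24 h and 1.64, 1.64 and 1.67 at 48 h (difference 0.536, standard error 0.0423, adjusted p = 6.45e-06). On the 0 h arrays it had been at 0.369, 0.491 and 0.470, so it climbed on both days. SFTPA1, surfactant protein A, went from 0.675 and 0.520 to 1.06, 1.09 and 1.11 (difference 0.488), and its near copy SFTPA2 may share its probes. CEACAM6, a surface glycoprotein of airway and gut, went from 0.602 and 0.549 to 1.03, 0.967 and 1.02 (difference 0.431). CXCL17, a mucosal chemokine, went from 1.14 and 1.11 to 1.56, 1.59 and 1.48 (difference 0.418). The times do not overlap for any of them, which held for every called feature and, on the higher side, for 11.9% of all features. ST6GALNAC2, a sialyltransferase, MUC15, a membrane mucin, and CEACAM5 rose by 0.435, 0.345 and 0.293. These genes do not speak for their lists. Of the alveolar list 3 of 18 tested members rose and 1 fell (median 0.00498), and of the mucin and secretory list 4 of 16 rose and 1 fell (median -0.00709). Of all features 2.78% rose and 7.68% fell. FOXA2, a factor of lung epithelium, was the alveolar gene that fell (difference -0.174), but no alveolar gene was called lower over all 13 arrays. The fall in the mucin list was not called there, after quantile normalisation or after median subtraction. NKX2-1, the lineage factor of alveolar cells, did not pass (difference -0.00421, named after its value was seen).

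Some cell contact genes were among the risers. Of 34 tested keratin and junction genes 7 rose, 27 were not called and none fell (median 0.0388), against 2.78% of all features that rose. After quantile normalisation 5 were called higher, as over all 13 arrays and without any 1 array. DSC2, DSG2 and DSP, which build desmosomes, rose by 0.284, 0.239 and 0.204, and their first-day differences were -0.0763, -0.0409 and 0.0703, none called over 13 arrays. CLDN1, a tight junction protein, went from 1.05 and 0.975 to 1.31, 1.22 and 1.33 (difference 0.270) and had risen on the first day too. Outside that list, TNC, a matrix glycoprotein, rose by 0.258 and MMP13, a collagenase, by 0.371.

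A minority of the genes downstream of the growth factor receptor rose, against 2.78% of all features. Of 12 tested feedback inhibitors of ERK 4 rose and none fell (median 0.0247). SPRY2, which restrains receptor signalling, scored 1.37 and 1.41, then 1.63, 1.64 and 1.65 (difference 0.251, adjusted p = 0.00024), and ERRFI1, an inhibitor of the receptor itself, rose by 0.211. DUSP6, the phosphatase of ERK, had risen by 0.470 on the first day over 13 arrays and rose by 0.134 on the second, a difference of -0.336 (adjusted p = 0.151). Without the first 0 h array the first-day rise was 0.462 and the difference -0.328 (adjusted p = 0.0220). Of 24 immediate early factors 3 rose and 1 fell (median 0.0311). EGR1 scored 1.57 and 1.64, then 1.86, 1.91 and 1.96 (difference 0.303), JUNB rose by 0.179, and FOSL1 fell by 0.197. Of 13 receptors and ligands of the EGF family AREG (0.178) and ERBB3 (0.140) rose (median 0.0315). Of 24 FOXO genes 4 rose, TXNIP among them, which binds thioredoxin and curbs glucose uptake (difference 0.223, after 0.502 on the first day). Leaving out 1 array left 1 to 4 calls in the ERK list and 1 to 4 in the FOXO list, and over all 13 arrays 1 ERK inhibitor, 1 immediate early factor, 1 FOXO gene and no EGF family gene was called higher.

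**Figure D4:**
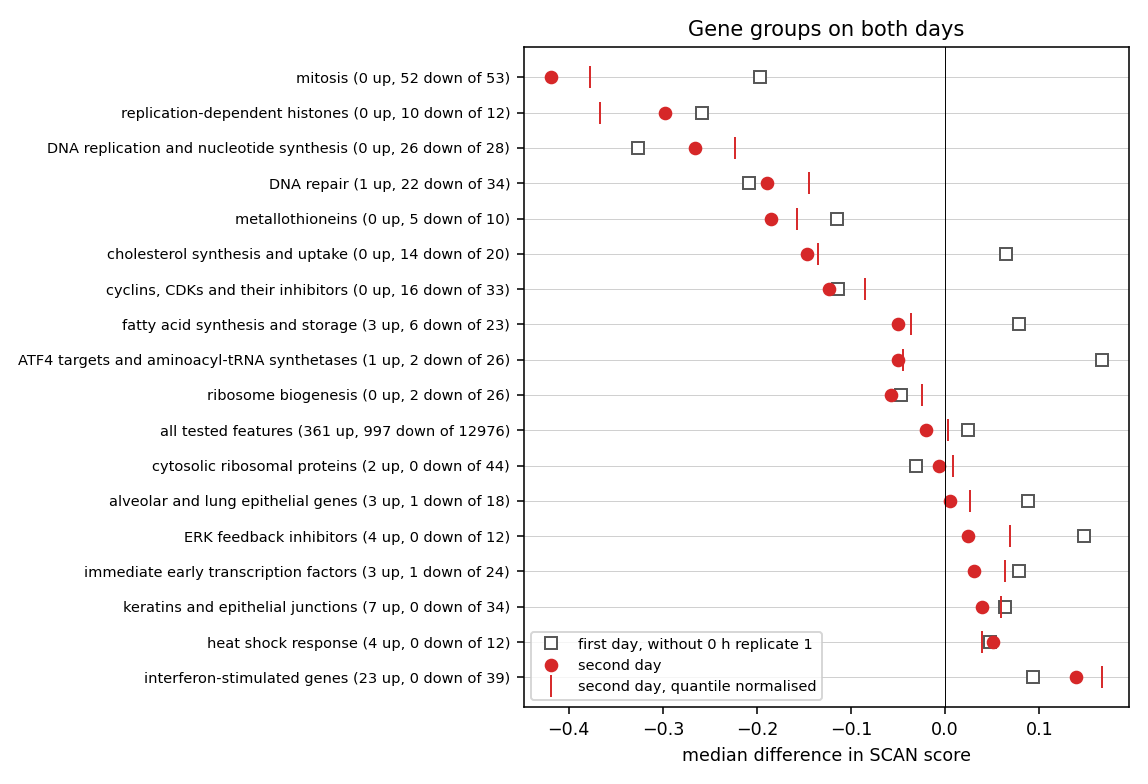
Median difference in SCAN score (x axis) of 17 gene lists and of all tested features (rows, with the number called on the second day) for the first day without the first 0 h array (squares), the second day (points) and the second day after quantile normalisation (ticks). Mitosis is at -0.419 on the second day against -0.197 on the first, the cholesterol list at -0.147 against 0.0645, and the ATF4 list at -0.0504 against 0.166.

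Cholesterol synthesis genes fell on the second day. Of 20 tested members 14 fell and none rose (median -0.147), against 7.68% of all features that fell. On the first day none had fallen and 3 had risen, against 5.33% of all features. Without the first 0 h array 7 had risen, against 12.8%. The first-day medians were 0.0403 and 0.0645. By class 12 members fell on the second day alone. TM7SF2 and SREBF1 rose and then fell (named after their values were seen), but left that class over 13 arrays and under both other scales. MVD, which makes isopentenyl diphosphate, scored 1.48 and 1.53 at 24 h and 1.14, 1.26 and 1.19 at 48 h (difference -0.307, adjusted p = 0.00022). At 0 h it had been at 1.00, 1.28 and 1.32, and 48 h minus 0 h without the first array was -0.106 (adjusted p = 0.0540). HSD17B7, a later enzyme of the pathway, went from 1.15 and 1.13 to 0.781, 0.871 and 0.729 (difference -0.346), and it ended 0.276 below 0 h without the first array (adjusted p = 0.000114). INSIG1, which holds the pathway's regulator back, fell by 0.220. Over all 13 arrays 4 of the 20 were called lower, after median subtraction 8, and without 1 array 9 to 11. A test of the 2 changes against each other passed in 7 members without the first 0 h array, each with the lower change on the second day. Of all features 3.75% did so, and over all 13 arrays no member passed. Of the fatty acid list 6 of 23 fell and 3 rose, against 7.68% and 2.78% of all features. Over all 13 arrays 2 were called lower and none higher. The fallers included FASN, fatty acid synthase (2.20 and 2.19, then 2.02, 2.03 and 2.04, difference -0.164), ACLY, LPIN1 and ACSS2, while ANGPTL4, an inhibitor of lipoprotein lipase, rose from 1.61 and 1.55 to 1.79, 1.76 and 1.79 (adjusted p = 0.00181). Of 10 tested metallothionein genes 5 fell and none rose under each scale (median -0.185), but none was called over all 13 arrays. They bind zinc and copper, and their sequences are alike, so the 5 may not be separate measurements. MT1X scored 0.789 and 0.901, then 0.568, 0.578 and 0.539 (difference -0.284).

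Features that reversed were few and depended on the settings more than any other class. Over both days 114 features went on rising (0.879%), 185 went on falling (1.43%), 62 rose and then fell (0.478%) and 4 fell and then rose (0.0308%). A further 243 rose (1.87%) and 750 fell (5.78%) on the second day alone. Without the first 0 h array the counts were 181 (1.39%), 291 (2.24%), 147 (1.13%) and 10 (0.0771%) for the 4 classes called on both days, with 170 (1.31%) higher and 559 (4.31%) lower on the second day alone. An error in the 24 h arrays enters both days with opposite sign and makes a reversal of itself. With the first day taken from 1 of the 24 h arrays and the second day from the other, 2 or 3 features rose and fell and none fell and rose, against 26 or 34 that went on rising and 27 or 67 that went on falling. After quantile normalisation 12 rose and fell and 3 fell and rose. After median subtraction the balance turned, with 9 that rose and fell and 30 that fell and rose. One fit over all 13 arrays gave 14 and none. Of the 62, 43 were not distinguishable from 0 h at 48 h without the first 0 h array, and 19 were still higher.

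**Figure D5:**
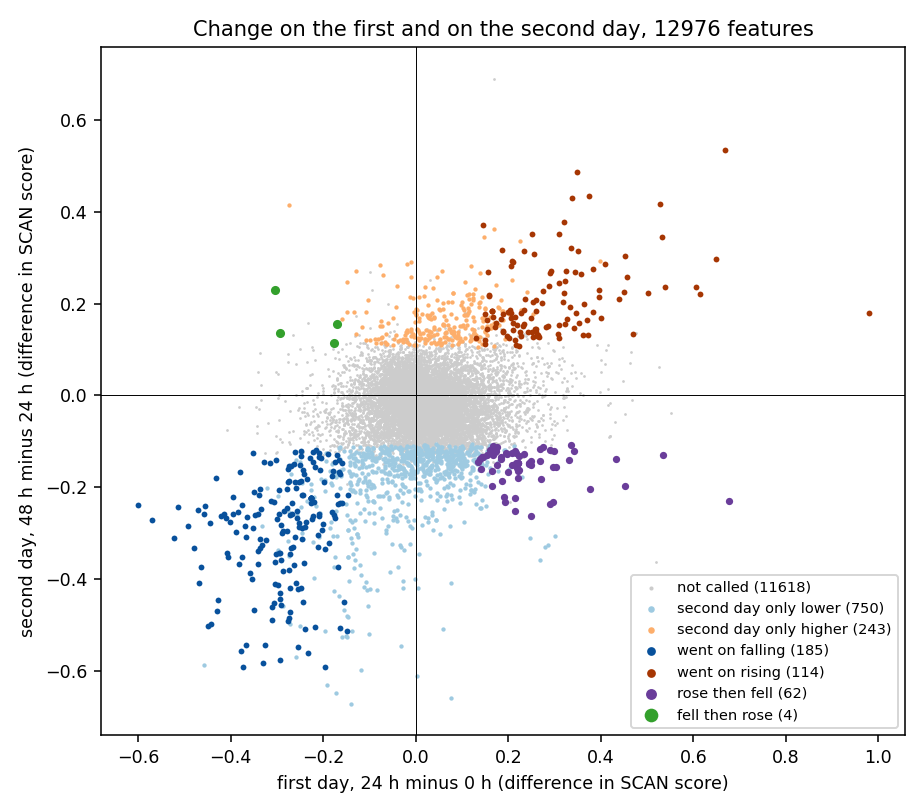
Difference in SCAN score on the first day (x axis, 24 h minus 0 h over all 13 arrays) and on the second day (y axis, 48 h minus 24 h) for 12976 features, coloured by class with the number of features. The lower left holds the 185 features that went on falling and the lower right the 62 that rose and then fell, of which TMEM156 lies farthest to the right, at 0.677.

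TMEM156, a membrane protein of little known function, was the 1 gene that rose and fell under each of the 7 ways of forming the classes. It scored 0.987, 0.880 and 0.918 at 0 h, 1.60 and 1.61 at 24 h and 1.39, 1.41 and 1.33 at 48 h. The fall of 0.229 on the second day (adjusted p = 0.000951) gave back part of the rise of 0.677 on the first. CTH, which makes cysteine from cystathionine, scored 1.22 and 1.08 at 24 h and 0.886, 0.912 and 0.939 at 48 h (difference -0.236), close to its 0 h values of 0.925, 0.793 and 0.860. It was left out of the class only where the first day was taken from the third and the second day from the first 24 h replicate. GDF15, a stress cytokine, rose by 0.377 and fell by 0.204, and PSPH, the last enzyme of serine synthesis, rose by 0.191 and fell by 0.222. Further members were STAG3L2, C10orf95-AS1, MAP2K2, RAET1E and MIR3143, with differences of -0.223 to -0.263. None of these 5 stayed in the class with the 24 h arrays split between the days, and C10orf95-AS1, RAET1E and MIR3143 also left it after quantile normalisation and after median subtraction. GDF15 left it under 1 of the splits and over 13 arrays, and PSPH under both splits and after median subtraction. The 4 features that fell and then rose were POMP, which helps assemble the proteasome (first day -0.304, second day 0.230), IFIT3 (0.155 on the second day), MRE11 (0.136) and CANX, a chaperone of the endoplasmic reticulum (0.115). POMP scored 2.61 and 2.60 at 24 h and 2.84, 2.82 and 2.84 at 48 h. All 4 left the class under both splits and over 13 arrays, and IFIT3 and CANX also after quantile normalisation, where CANX was not called on the second day (adjusted p = 0.118).

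Many of the 998 features called on the first day (7.69%), or 2279 (17.6%) without the first 0 h array, were not called on the second. A missing call does not show that a value held. Of 691 features higher on the first day (5.33%) 515 were not called on the second, 114 rose (16.5%) and 62 fell (8.97%). Of all features 2.78% rose and 7.68% fell on the second day. Of 307 features lower on the first day (2.37%) 118 were not called, 185 went on falling (60.3%) and 4 rose. Without the first 0 h array 1339 of 1667 risers (12.8% of all) were not called, 181 rose (10.9%) and 147 fell (8.82%). Of the 612 fallers (4.72%) 311 were not called and 291 went on falling (47.5%). ATF4 targets and aminoacyl-tRNA synthetases, which cells raise when amino acids run short, rose on the first day and had few second-day calls. On the first day 13 of 26 had risen and none had fallen, against 5.33% of all features that rose. On the second 1 rose, WARS1 (difference 0.122), and 2 fell, PSPH and PHGDH (difference -0.117), with a median of -0.0504. These counts lie near the shares of all features, 2.78% and 7.68%. SLC7A11, the cystine transporter, rose by 0.452 on the first day and changed by -0.0405 on the second (adjusted p = 0.512), and DDIT4, an inhibitor of mTORC1, by 0.418 and -0.0910 (adjusted p = 0.144), both named after their values were seen. A test of the 2 changes against each other passed in 10 of the 26 without the first 0 h array, each with the lower change on the second day. Of all features 3.75% did so, and over all 13 arrays none of the 26 passed.

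Of the 6 largest first-day rises 5 went on. PAEP, a secreted glycoprotein, had risen by 0.979 and rose by 0.181 more, from 2.25 and 2.29 to 2.43, 2.41 and 2.52 (adjusted p = 0.0102). PTGS2, the inducible cyclooxygenase, had risen by 0.616 and rose by 0.222, though its 48 h arrays spread from 1.74 to 1.90. IFI6, an interferon-stimulated gene, went from 2.87 and 2.97 to 3.21, 3.21 and 3.24 (difference 0.298), and SNORD116-21, a small nucleolar RNA of a repeated cluster, rose by 0.236. NAPSA is given above, and TMEM156 was the 1 that turned. All 6 of the largest first-day falls went on, with second-day differences of -0.238 to -0.332: CCNE2, the cyclin of S phase entry, CDC6, MCM6, DTL, EXO1 and FAM111B.

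Small RNA loci gave a few calls, to be read against 2.78% of all features that rose. Of 18 tested microRNA loci and host genes 5 rose and none fell, and leaving out 1 array left 2 to 4, and the fit over 13 arrays 3. MIR23B scored 0.896 and 0.835, then 1.10, 1.08 and 1.09 (difference 0.223, adjusted p = 0.000855). MIR221 scored 1.90 and 1.92, then 2.04, 2.13 and 2.09 (difference 0.178), and MIR21 scored 2.39 and 2.41, then 2.58, 2.58 and 2.50 (difference 0.151). The others were MIR22HG and MIR31HG (differences 0.205 and 0.139). The array's features read the locus or its precursor, not the mature microRNA. One mature arm of each is shown with the seed, bases 2 to 8, in capitals, from RefSeq on GRCh38.p14.
hsa-miR-21-5p: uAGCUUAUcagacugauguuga
hsa-miR-221-3p: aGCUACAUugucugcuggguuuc
hsa-miR-23b-3p: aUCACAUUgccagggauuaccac
No 2 of the 3 seeds are the same. Of 15 tested small nucleolar RNA and host genes 3 rose, SNORA38B (difference 0.414), SNORD116-24 (0.293) and RMRP (0.173), and none was called over all 13 arrays. The largest difference of all features, 0.691 for SNORA11, was not called (adjusted p = 0.219), and its 24 h arrays stood at 2.09 and 0.578 (named after its values were seen).

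The remaining lists had few calls each, to be read against 2.78% of all features that rose and 7.68% that fell. Over all 13 arrays NF-kB targets kept 1 rise, and YAP and SRF targets and matrix genes 2 rises each. Glycolysis, lysosome and NRF2 genes kept 1 fall each. Apart from heat shock genes, no other list of this paragraph kept a call. After quantile normalisation the folding list had no call, and no lysosome gene was called higher. No NF-kB, BCL2, YAP and SRF, matrix or TGF-beta gene was called lower on that scale. Ribosomal proteins and p53 targets then gave 1 rise and 1 fall each, and ribosome biogenesis 1 fall. Of NF-kB targets 4 of 29 rose and 1 fell, with CX3CL1, a membrane chemokine, at 0.258 and CXCL8 at 0.161, and of YAP and SRF targets 4 of 20 rose and 1 fell, with F3, tissue factor, at 0.336 and THBS1 at 0.217. Heat shock genes gave 4 rises in 12, led by HSPA1A and HSPA1B (0.192 each), which are near-identical, with 2 rises after quantile normalisation and 1 over all 13 arrays. Glycolysis and hypoxia genes gave 3 rises and 2 falls in 22, and matrix genes 3 rises and 1 fall in 19. Notch and WNT genes gave 3 rises and 1 fall in 27, lysosome genes 2 and 1 in 31, and folding genes of the endoplasmic reticulum 2 and 1 in 20. Ribosomal proteins gave 2 rises in 44, ribosome biogenesis 2 falls in 26, and the respiratory chain 1 fall in 15. Complement gave 2 falls in 10, C5 and CFI (-0.299 and -0.241), p53 targets 2 falls in 16, NRF2 targets 2 falls in 20, and the BCL2 family 1 rise and 2 falls in 17. TGF-beta genes gave 1 fall in 20, clock genes 1 fall in 13, Kruppel-like factors 2 rises in 13, the MYC network none in 11 and transporters none in 4. Of the markers of other cells KDR rose (0.192) and LUM fell (-0.145, at background on every array), each 1 gene of its list, and 9 leukocyte genes were not called.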

How the data were processed

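Total RNA of 13 control samples of H1975 cells was hybridised to GeneChip Human Gene 2.0 ST arrays. The deposited values are scores made by the authors with SCAN, which standardises each array alone, with no normalisation between arrays; the genome build behind them is not given in the sources used here. Of 39937 features 15426 had a symbol in the platform annotation and 212 more in a supplementary table held in part, 2662 without a value of at least 0 were left out, and 12976 were tested (118 repeat another feature's values). Differences were fitted in R 4.3.3 by limma 3.58.1 (moderated, two-sided, Benjamini-Hochberg over all features), for the second day on 5 arrays (3 residual degrees of freedom) and for the first day on 13. Few arrays limit the precision, with a median standard error of 0.0349 on the second day. On simulated data of the same size the fit was checked for recovery of known changes. Classes cross the calls of both days. The rule for named genes took the 12 largest rises and falls among called genes whose 24 h and 48 h arrays did not overlap. It also took the 8 largest changes of each class and the 6 largest first-day rises and falls. From each of 44 gene lists it took up to 5 members in each direction by adjusted p. Each symbol was represented by 1 feature. The members and lists were chosen with earlier results of these data known. The labels do not say whether replicate numbers pair the arrays, and the main fits are unpaired. Only 2 numbers are shared by both times, and deviations of same-numbered arrays correlated at -0.0975 and -0.0324. The deviations of the 2 arrays at 24 h mirror each other, so these values cannot settle whether the arrays are paired. Promoter and microRNA sequences are RefSeq's (GRCh38.p14). The alternatives were other scales, filters, fits and array sets. A gene that the rule selects is not reported here.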

Additional observations from a re-analysis of the deposited data

How the results depend on the processing

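Counts moved with the fit, and the balance of higher and lower calls moved with the scale. As deposited 361 features rose and 997 fell on the second day, and 691 rose and 307 fell on the first. After median subtraction the larger side changed on both days. The second day gave 1358 calls, and 368 (81 higher, 287 lower) over all 13 arrays, 9 (3 and 6) without moderation of the variances and, without single arrays, 748 to 1200 (217 to 272 higher, 531 to 928 lower), with 748 without 24 h replicate 1, 852 without 24 h replicate 3 and 892 without 48 h replicate 3. Median subtraction gave 928 higher and 493 lower, and quantile normalisation 553 lower over 5 arrays and 552 over 13. With a replicate block the 13-array fit gave 220 (44 and 176), and the 5-array fit with a replicate block 1296, within 1.5 times of the unpaired count. The first day gave 998 calls, and 2279 (1667 and 612) without 0 h replicate 1, 122 (85 and 37) or 223 (139 and 84) from a single 24 h array, 446 higher after quantile normalisation and 324 higher and 612 lower after median subtraction. The classes in the order went on rising, went on falling, rose then fell and fell then rose held 181, 291, 147 and 10 without 0 h replicate 1, 26, 27, 2 and 0 or 34, 67, 3 and 0 with the 24 h arrays split between the days, and 46, 130, 14 and 0 from 1 fit over 13 arrays, which left 35 higher and 143 lower on the second day only. Quantile normalisation gave 12 that rose then fell and 382 and 334 on the second day only, and median subtraction 9, 30 (fell then rose), 774 and 255. The cause of these shifts was not tested. Of 173 named genes 58 were called under each alternative but the unmoderated test, and 1, SCD, changed sign. It was at 0.148 as deposited and at -0.0189 after quantile normalisation over 5 arrays (adjusted p = 0.79). After quantile normalisation over 13 arrays it was at -0.0277.

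Quantile normalisation over 13 arrays, both scales of the first day, the median scale of the classes and the first day from a single 24 h array were chosen after the data were seen. With 2 arrays at 24 h, 1 unusual array there moves every second-day value, and leaving one out assumes that the other varies as the 48 h arrays do. Scores have no true zero, so changes of genes near background are compressed.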
